A study of Mus musculus with 6 samples.

Results

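The chemokine and chemokine receptor genes were examined in the livers of MUTYH-null and wild-type mice. Members were taken by name: genes called Ccl, Cxcl, Ccr or Cxcr with a number, together with Cx3cl1, Cx3cr1, Xcl1, Xcr1 and Ackr1 to Ackr4. Each gene was read from probe sets assigned to that gene and no other, and the probe set with the highest mean was kept. This gave 56 genes out of 22180, of which 34 were ligands and 22 were receptors. The ligands comprised 19 CC, 13 CXC and 2 other chemokines, and the receptors comprised 18 signaling and 4 atypical receptors. A further 7 symbols, those of the Ccl19 and Ccl21 family and Ccl27b among them, lay on probe sets shared with other genes and were left out.

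Whole-liver RNA from 6 C57BL/6 mice was hybridised, 1 array per mouse. The MUTYH-null group held animals 3003, 3007 and 3008, with genotype Mutyh -/- and a diagnosis of HCC, hepatocellular carcinoma. The wild-type group held animals 1025, 1027 and 1001, with genotype Mutyh +/+ and no HCC. Both groups received the same feed from 8 weeks of age, a high-fat high-carbohydrate (HFHC) diet with a high iron content, for 9 months. By the study's methods the mice were male and the tissue was non-tumorous liver. MUTYH, the enzyme removed in the null mice, excises adenine that has been paired with oxidized guanine. Since every MUTYH-null liver came from a tumor-bearing mouse and every wild-type liver from a tumor-free mouse, genotype and tumor status cannot be told apart. In whole tissue, a change in the number of cells of a type and a change in RNA per cell cannot be told apart either.

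The signals are log2 values after RMA, the multi-array normalization that reduces each probe set to 1 value per array. Their medians lay between 4.51 and 4.55 on the 6 arrays, and arrays of the same group correlated no more closely (r from 0.983 to 0.985) than arrays of different groups (0.982 to 0.985). The Mutyh probe set itself read 4.43, 4.65 and 4.34 in MUTYH-null livers and 4.44, 4.36 and 4.48 in wild-type livers, a difference of 0.05 ± 0.10 (SE). This transcript signal therefore gave no check of the genotype labels, and the position of its probes relative to the deleted sequence is not known here. All 10 hepatocyte markers were above the median signal, with a mean level of 11.53 to 11.67 in the MUTYH-null and 11.57 to 11.61 in the wild-type livers.

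Chemokines are small secreted proteins that guide leukocytes along concentration gradients. They are grouped by the spacing of their first cysteines into CC, CXC, CX3C and XC families, and they act through seven-transmembrane receptors coupled to Gi proteins. Atypical receptors bind chemokines without this signaling and remove or transport them. In steatohepatitis the family is known chiefly for the recruitment of monocytes through Ccr2, of neutrophils through Cxcr2 and of lymphocytes through Cxcr3 and Cxcr6.

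The promoters of 3 members to which the results return are shown because their genes lay apart in the groups, or because a motif of inflammatory transcription was present. Each is a window of 300 bases that ends shortly after the start of the gene, and all come from RefSeq, build GRCm38.p6. Cxcl1 lies at chr5:90890995-90891294 and Cxcl2 at chr5:90903649-90903948, both on the plus strand, and Cxcl14 lies at chr13:56296502-56296801 on the minus strand. Capitals mark GGAATTTCC, a core sequence bound by NF-kB, the transcription factor of inflammatory signaling. All sequences run 5′ to 3′.
Cxcl1: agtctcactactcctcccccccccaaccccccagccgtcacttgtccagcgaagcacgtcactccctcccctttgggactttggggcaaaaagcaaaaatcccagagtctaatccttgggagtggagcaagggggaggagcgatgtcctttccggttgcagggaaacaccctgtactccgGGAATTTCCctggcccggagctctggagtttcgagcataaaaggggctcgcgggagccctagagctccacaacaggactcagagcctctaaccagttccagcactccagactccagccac
Cxcl2: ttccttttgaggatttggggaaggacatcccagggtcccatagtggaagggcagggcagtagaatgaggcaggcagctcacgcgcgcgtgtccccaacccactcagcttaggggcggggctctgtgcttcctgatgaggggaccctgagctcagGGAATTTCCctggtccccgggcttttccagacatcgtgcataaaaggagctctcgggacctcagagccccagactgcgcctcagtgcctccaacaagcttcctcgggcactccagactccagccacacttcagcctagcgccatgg
Cxcl14: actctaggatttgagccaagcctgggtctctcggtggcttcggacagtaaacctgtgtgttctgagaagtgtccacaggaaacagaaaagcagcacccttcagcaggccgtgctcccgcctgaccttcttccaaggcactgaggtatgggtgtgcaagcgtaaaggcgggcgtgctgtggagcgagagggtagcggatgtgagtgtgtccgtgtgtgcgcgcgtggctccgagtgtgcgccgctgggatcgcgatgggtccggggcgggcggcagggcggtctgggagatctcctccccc
The core began 70 bases before the start of Cxcl1 and 96 bases before that of Cxcl2, and it was not found in the Cxcl14 window. On both strands the core occurred in 0.317% of all 32851 promoters, and among the 42 member genes in the promoter table it occurred in 5, namely Ccr3, Cxcl1, Cxcl2, Cxcl3 and Cxcl10. No promoter was available for Ccl26 and Ccl11, which also lay apart in the groups, so neither was searched for motifs. An interferon response motif, GAAANTGAA, occurred in 2.21% of all promoters and in those of Cxcl10 and Cxcr1. A TATA box written TATAAA occurred in 13.6% of all promoters and in those of 14 member genes. These matches describe letters in the windows and were not related to binding.

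Most chemokine and receptor genes differed little in signal between MUTYH-null and wild-type livers. However, 24 of the 56 members had a mean under the median of all array values, 4.52. At an unadjusted p under 0.05 in the limma fit, the ligands Ccl26 and Cxcl14 were higher and the ligand Ccl11 was lower in the MUTYH-null mice, and the other 53 members did not pass. This was 3 of 56 members, against a background of 5.09% of all genes called in either direction (2.29% higher and 2.80% lower). The share of members, 5.36%, was thus close to the background. After Benjamini-Hochberg adjustment over all genes no member passed at 0.05 in limma, the smallest adjusted p among members being 0.963, and 0 of all 22180 genes passed.

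The median difference over the 56 members was 0.04 on the log2 scale, where all genes had a median of -0.01. There were 36 members with a higher and 20 with a lower mean in the MUTYH-null group, so that 64.3% were higher, against 47.5% of all genes. The member differences ran from -0.38 for Cxcl13 to 0.37 for Cxcl1, and both of these genes varied widely among mice of the same group. The precision was such that the 95% interval of 55 of the 56 members lay within 2-fold in either direction. For 48 members it lay within 1.5-fold. The exception at 2-fold was Cxcl13, with an interval from -1.15 to 0.40.

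**Figure D1:**
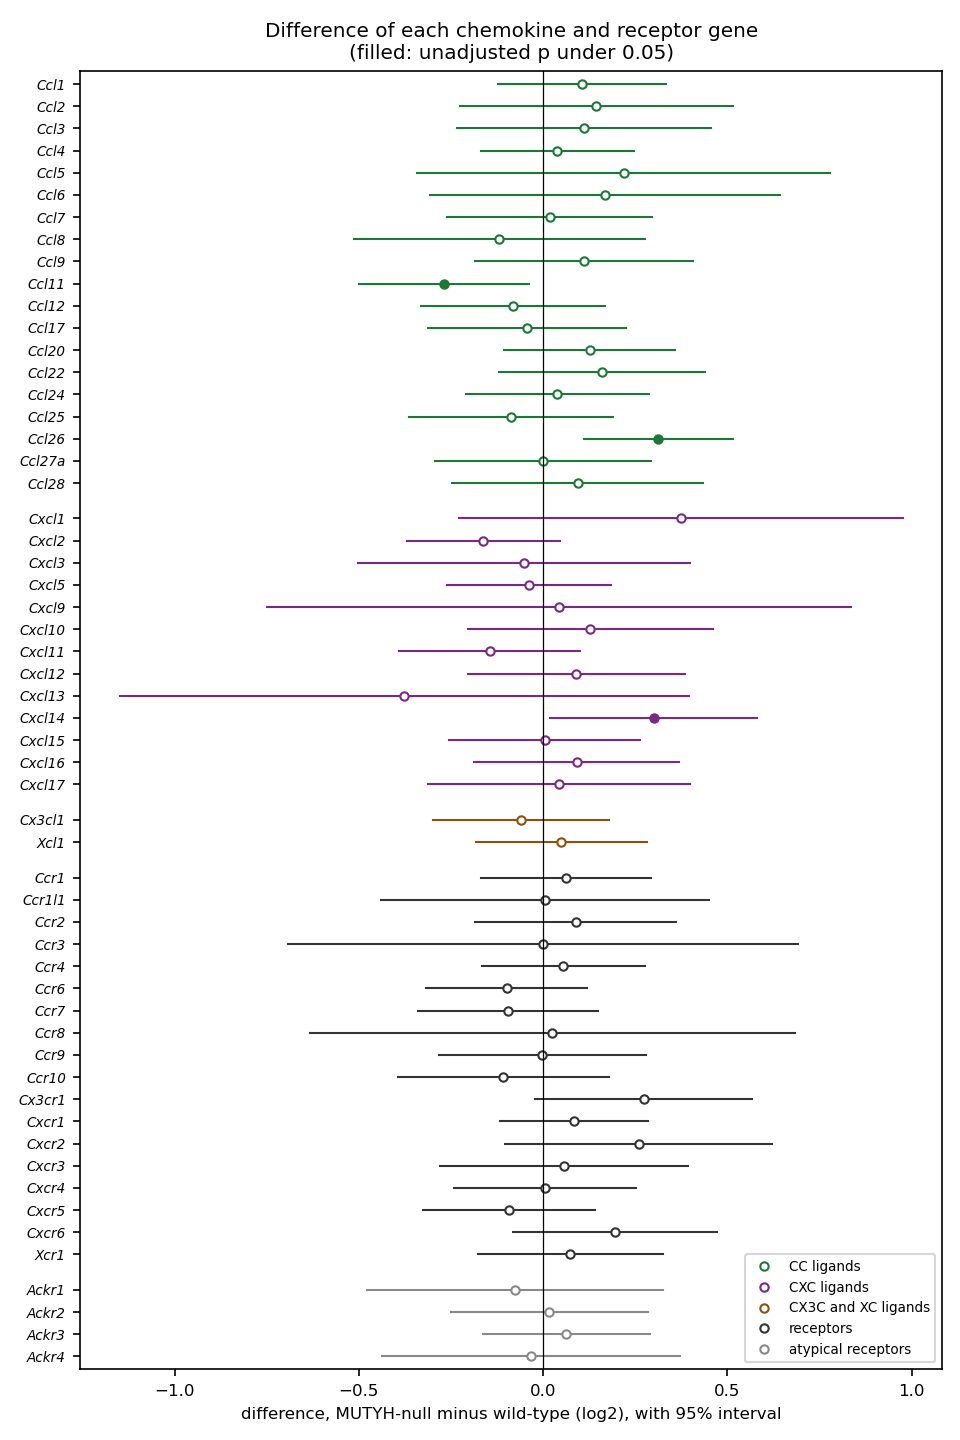
Difference of each of the 56 genes on the x axis (MUTYH-null minus wild-type, log2) with its 95% interval as a line, grouped by role and colored by group; filled points passed an unadjusted p under 0.05. The 3 filled points are Ccl26 and Cxcl14, to the right of 0, and Ccl11, to the left, and the other 53 intervals include 0.

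The groups of mice were fully separated for 4 of the 56 members. All 3 MUTYH-null values of Ccl26 and Cxcl14 lay above all 3 wild-type values, and those of Ccl11 and Cxcl2 lay below. Over all genes such separation occurred in 9.53%, so that the share of members, 7.14%, did not exceed the background. All 4 separated members were ligands, and 0 of the 22 receptors were separated or called. Of the 34 ligands 11.8% were separated, against 9.53% of all genes, and 8.82% were called, against 5.09%. The split between ligands and receptors was not tested.

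**Figure D2:**
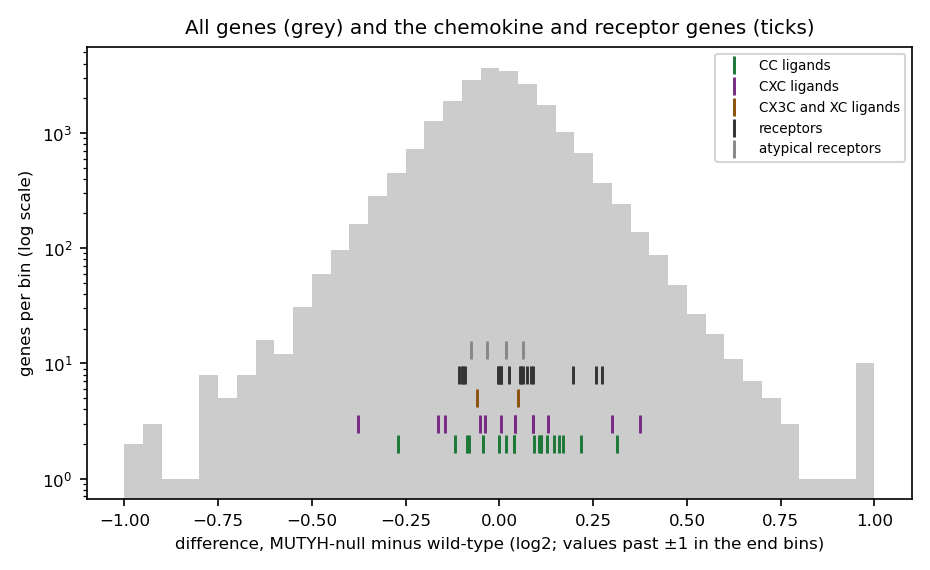
Distribution of the difference (MUTYH-null minus wild-type, log2, x axis) over all 22180 genes as grey bars on a logarithmic count axis, with each chemokine or receptor gene as a tick colored by role. The ticks lie between -0.38 and 0.37, around a median of 0.04.

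The eotaxins, which attract eosinophils through Ccr3, held 2 of the 3 called members, in opposite directions. Ccl26, eotaxin-3 in human, read 3.85, 3.71 and 3.72 in MUTYH-null livers and 3.47, 3.47 and 3.40 in wild-type livers. The groups did not overlap. Its difference was 0.31 ± 0.09 (SE), or 1.24-fold, with an unadjusted limma p of 0.007, an adjusted p of 0.963 and an exact permutation p of 0.1, the smallest that 3 mice against 3 can give. It was the member with the smallest p, and it passed the unadjusted threshold with each of the 6 mice left out in turn.

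Ccl11, eotaxin-1, read 4.10, 4.03 and 3.87 in MUTYH-null livers and 4.37, 4.25 and 4.19 in wild-type livers. Every MUTYH-null value lay below the lowest wild-type value. The difference was -0.27 ± 0.10 (SE), 1.21-fold lower in the MUTYH-null group, with an unadjusted limma p of 0.027, an adjusted p of 0.963 and an exact permutation p of 0.1. Both Ccl26 and Ccl11 stayed under the median of all array values, 4.52, on all 6 arrays, so that these differences were measured near the low end of the signal. With genes of low mean signal left out, neither was tested. The call of Ccl11 was lost without mouse 3008, 1025 or 1027, with differences of -0.20, -0.22 and -0.28.

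Ccl24, eotaxin-2, is the neighbour of Ccl26 on chromosome 5. Its group means were 4.54 ± 0.02 in the MUTYH-null and 4.50 ± 0.17 in the wild-type mice (SD, n = 3 each), a difference of 0.04. The receptor Ccr3 had equal group means of 2.47. Its wild-type values were spread over 3.26, 2.17 and 1.97, with mouse 1025 far above the other two, while the MUTYH-null values were 2.34, 2.45 and 2.62. Without mouse 1025 the Ccr3 difference became 0.40 and passed the unadjusted threshold.

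Cxcl14, a homeostatic chemokine of epithelia that attracts monocytes and dendritic cells, was the third called member and the 1 called member above the median signal. It read 6.35, 6.17 and 6.06 in MUTYH-null livers and 6.03, 5.95 and 5.70 in wild-type livers. The groups did not overlap, but the lowest MUTYH-null mouse and the highest wild-type mouse were almost level. The difference was 0.30 ± 0.12 (SE), or 1.23-fold, with an unadjusted limma p of 0.039, an adjusted p of 0.963 and an exact permutation p of 0.1. The call was lost without mouse 3003, 3007, 1001 or 1027, with differences of 0.22, 0.31, 0.20 and 0.33.

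**Figure D3:**
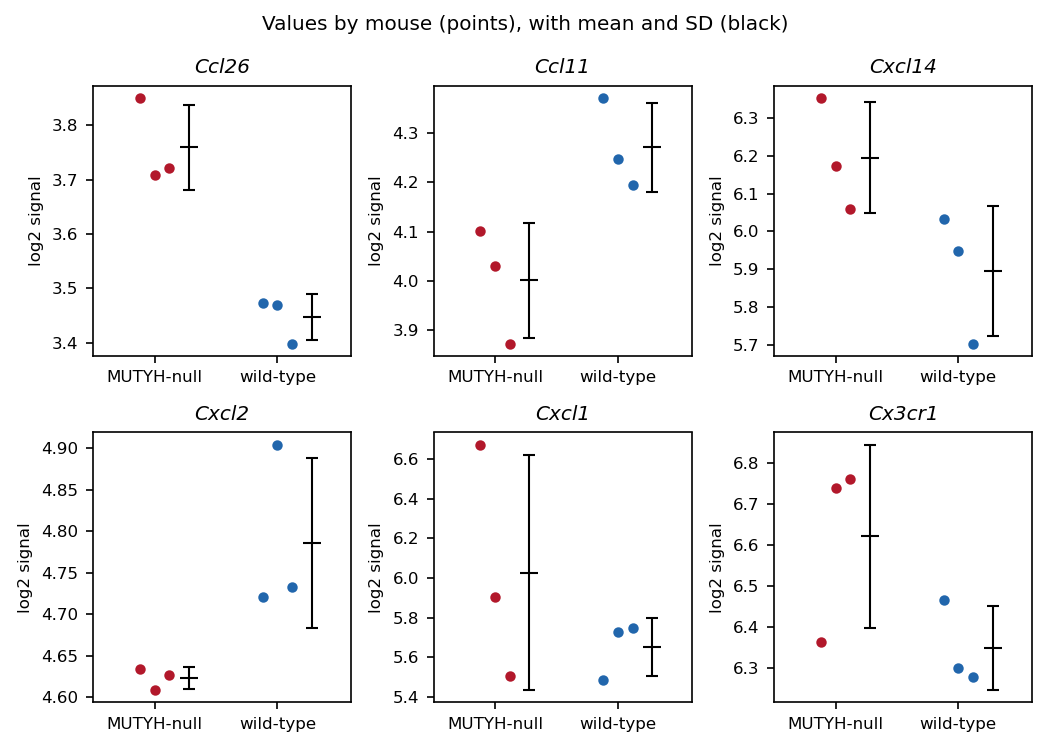
Log2 signal (y axis) of Ccl26, Ccl11, Cxcl14, Cxcl2, Cxcl1 and Cx3cr1 in each MUTYH-null (red) and wild-type (blue) mouse, with the group mean and SD in black; each panel has its own y range, which does not start at 0. The groups are separate for the first 4 genes and overlap for Cxcl1, where mouse 3003 stands at 6.67, and for Cx3cr1.

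Of the 5 neutrophil-attracting ligands of Cxcr2, 2 had a higher and 3 a lower mean in the MUTYH-null mice, and none was called. Cxcl2 read 4.63, 4.61 and 4.63 in MUTYH-null livers and 4.72, 4.90 and 4.73 in wild-type livers. Its groups did not overlap, yet the difference of -0.16 ± 0.09 (SE) did not pass (adjusted limma p of 0.969, exact permutation p of 0.1). Its close relative Cxcl1 read 6.67, 5.91 and 5.50 in MUTYH-null livers and 5.48, 5.73 and 5.75 in wild-type livers. The high mean of the MUTYH-null group came from mouse 3003, and mouse 3008 lay among the wild-type values. The Cxcl1 difference of 0.37 ± 0.26 (SE, exact permutation p of 0.4) was 0.05 without mouse 3003 and 0.64 without mouse 3008, where it passed the unadjusted threshold.

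The promoters of Cxcl1 and Cxcl2 both carried the NF-kB core printed above, and so did that of Cxcl3, whose group means were 1.93 and 1.98 in the MUTYH-null and wild-type mice. Cxcl5, made by epithelial cells, differed by -0.04 and Cxcl15, lungkine, by 0.00. Cxcr2 itself, the neutrophil receptor for these ligands, read 4.25, 4.50 and 4.52 in MUTYH-null livers and 3.87, 4.15 and 4.47 in wild-type livers. The ranges overlapped, and the difference of 0.26 ± 0.16 (SE) had an exact permutation p of 0.2. It passed the unadjusted threshold without wild-type mouse 1001, with a difference of 0.41. Cxcr1, the related neutrophil receptor, differed by 0.08. None of 10 neutrophil markers was called, and their mean level was 3.73 to 3.77 in the MUTYH-null and 3.75 to 3.94 in the wild-type mice.

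Pf4 and Ppbp, platelet chemokines of the same chromosome 5 cluster whose older names are Cxcl4 and Cxcl7, were not members by name. They belong to a list of 9 related genes outside the rule. Of its 7 measured genes 1 was called, Pf4, and the differences ran from -0.06 to 0.53. Pf4 read 5.05, 5.51 and 4.83 in MUTYH-null livers and 4.66, 4.58 and 4.54 in wild-type livers. All MUTYH-null values were higher, with a difference of 0.53 ± 0.16 (SE, adjusted p = 0.963 in limma), and the call held with each mouse left out. Ppbp differed by 0.07 ± 0.15 (SE). None of 5 other platelet markers was called, with differences from -0.17 to 0.26. The highest was that of Clec1b, which is also on the list of markers of Kupffer cells, the resident macrophages of the liver. With both genes counted as members, a choice made after their values were seen, 4 of 58 were called and 5 had separate groups. Over all genes 5.09% were called and 9.53% had separate groups.

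Ligands of Ccr2, the receptor that brings inflammatory monocytes into the liver, were divided. Ccl2, the main monocyte chemoattractant, had group means of 5.53 ± 0.25 in the MUTYH-null and 5.39 ± 0.23 in the wild-type mice (SD, n = 3 each). Ccl7 had means of 5.74 and 5.73, Ccl8 of 3.84 and 3.96 and Ccl12 of 2.66 and 2.74. The differences, 0.14, 0.02, -0.12 and -0.08, were each smaller than their standard error. Ccr2 had means of 5.17 and 5.08, with a 95% interval of its difference from -0.18 to 0.36.

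The inflammatory ligands of the second chromosome 11 cluster attract monocytes, macrophages and T cells. They are Ccl3, Ccl4, Ccl5, Ccl6 and Ccl9, and all 5 had a higher mean in the MUTYH-null group, with a median difference of 0.11. None of them was called, and the smallest adjusted limma p was 0.993. In the first cluster of the chromosome, with Ccl2, Ccl7, Ccl11, Ccl12, Ccl8 and Ccl1, 3 members were higher and 3 lower, with a median of -0.03. Within the second cluster Ccl9 had means of 9.14 and 9.03, Ccl6 of 6.22 and 6.05, and Ccl3 of 5.16 and 5.05 in the MUTYH-null and wild-type mice. Ccl4 had means of 5.19 and 5.15, and Ccl3 and Ccl4 are the macrophage inflammatory proteins. Ccr1 had means of 3.57 and 3.51, and its relative Ccr1l1 of 2.39 and 2.38.

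Ccl5, produced by T cells and NK cells, read 6.23, 6.60 and 6.94 in MUTYH-null livers and 6.06, 6.87 and 6.18 in wild-type livers. The groups overlapped and the difference was 0.22 ± 0.24 (SE). Cxcl9, an interferon-gamma-induced ligand of Cxcr3, read 7.38, 8.44 and 8.06 in MUTYH-null livers and 7.68, 8.63 and 7.44 in wild-type livers. Its difference was 0.04 ± 0.34 (SE), much smaller than the spread within either group. Mice 3007, 3008 and 1027, from both groups, were the 3 highest for Cxcl9 and also for Ccl5.

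The other ligands of Cxcr3, the receptor of effector T cells, varied less. Cxcl10 had means of 5.39 ± 0.25 and 5.27 ± 0.16 (SD, n = 3 each), and Cxcl11 of 5.73 ± 0.14 and 5.88 ± 0.10, in the MUTYH-null and wild-type mice. RefSeq lists Cxcl11 as a transcribed pseudogene in the C57BL/6J reference. The differences were 0.13 for Cxcl10, -0.14 for Cxcl11 and 0.06 for Cxcr3. None of the 3 ligands nor the receptor was called.

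Spread within a group was largest for Cxcl9, Cxcl13, Ccr3, Ccr8, Cxcl1 and Ccl5. Their pooled standard deviations, 0.58, 0.57, 0.50, 0.48, 0.43 and 0.40, were between the 98.0th and the 99.7th percentile of all genes. The median over all members was 0.158, and over all genes it was 0.142. Cxcl13, which draws B cells into follicles through Cxcr5, read 4.58, 4.30 and 5.14 in MUTYH-null livers and 4.59, 5.83 and 4.74 in wild-type livers. Its difference of -0.38 ± 0.34 (SE) rested on wild-type mouse 1027 and was 0.01 without it. Cxcr5 differed by -0.09, and none of 7 B-cell markers was called.

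**Figure D4:**
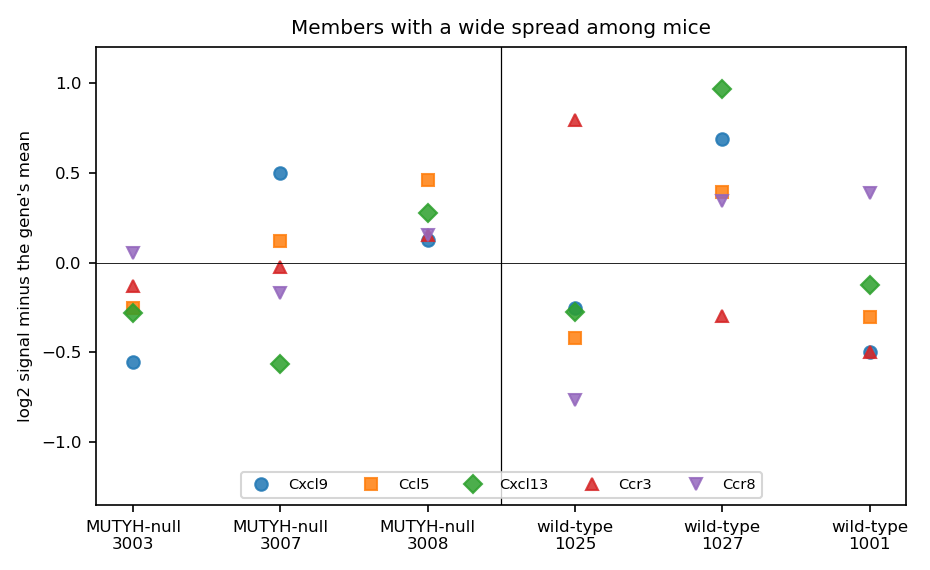
Log2 signal minus the mean of the gene over 6 mice (y axis) for Cxcl9, Ccl5, Cxcl13, Ccr3 and Ccr8 in each mouse (x axis, MUTYH-null left of the line). Cxcl13 stands out in mouse 1027, Ccr3 is high and Ccr8 low in mouse 1025, and Cxcl9 and Ccl5 are both high in mice 3007, 3008 and 1027.

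Ccr8, found on Th2 and regulatory T cells, read 3.11, 2.88 and 3.20 in MUTYH-null livers and 2.28, 3.39 and 3.43 in wild-type livers. Wild-type mouse 1025 was the lowest, and without it the difference turned from 0.02 to -0.35 and passed the unadjusted threshold. The same mouse was the highest for Ccr3, so that both receptors passed the threshold when it alone was left out, in opposite directions. The Ccr8 ligand Ccl1 had means of 4.11 and 4.01. Both receptors lay under the median signal on all 6 arrays.

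Cx3cr1, the fractalkine receptor of patrolling monocytes and tissue macrophages, came nearest to the threshold among the receptors. It read 6.36, 6.74 and 6.76 in MUTYH-null livers and 6.47, 6.30 and 6.28 in wild-type livers. MUTYH-null mouse 3003 fell between the wild-type values and the other two lay above all of them. The difference was 0.27 ± 0.13 (SE), with an exact permutation p of 0.2 and an adjusted limma p of 0.964. It was 0.40 without mouse 3003 and then passed the unadjusted threshold, as it also did with a robust variance trend. Its ligand Cx3cl1, fractalkine, had means of 5.25 and 5.31 and a difference of -0.06.

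Cxcl16 and its receptor Cxcr6, which hold NKT cells and resident T cells in the liver, both had a higher mean in the MUTYH-null mice without being called. Cxcl16 had means of 7.36 and 7.27, and Cxcr6 of 4.12 and 3.92. The Cxcr6 difference was 0.19 ± 0.12 (SE), and it passed without wild-type mouse 1001 with a difference of 0.29. Cxcr6 lay under the median signal on all 6 arrays. Cxcl12, the stromal chemokine that retains hematopoietic cells, had means of 9.46 and 9.37. Its signaling receptor Cxcr4 had means of 6.23 and 6.22, and its scavenger Ackr3 had means of 5.35 and 5.29.

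Among ligands of T-cell and dendritic-cell receptors, Ccl22 had means of 4.46 and 4.30 and Ccl17 of 3.43 and 3.48. Their receptor Ccr4, of Th2 and regulatory T cells, differed by 0.05. Ccl20 had means of 4.85 and 4.73, and its receptor Ccr6, of Th17 cells, had means of 3.25 and 3.35. Xcl1, made by NK and CD8+ T cells, had means of 4.11 and 4.06, and Xcr1, its receptor on cross-presenting dendritic cells, of 4.79 and 4.72. Ccr7, which leads cells to lymph nodes, had means of 5.47 and 5.56. The differences ran from -0.10 to 0.16, and the groups of mice overlapped for each of these genes.

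The ligands of mucosal and skin homing also differed little. Ccl25 had means of 5.67 and 5.76, Ccl27a of 5.74 in both groups and Ccl28 of 5.05 and 4.96 in the MUTYH-null and wild-type mice. Their receptors Ccr9 and Ccr10 differed by 0.00 and -0.11. Cxcl17, a mucosal chemokine, differed by 0.04. The atypical receptors were also level, with differences of -0.08 for Ackr1, the erythrocyte and venule receptor, 0.02 for Ackr2, a scavenger of inflammatory CC chemokines, and -0.03 for Ackr4, a scavenger of Ccl19, Ccl21 and Ccl25.

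The mice themselves did not order by group over the family. The highest value of a member was found in mouse 3008 for 13 members, 1025 for 11, 1027 for 10, 3003 for 9, 3007 for 8 and 1001 for 5. The lowest value was found in mouse 1001 for 15 members, 1025 for 13, 3007 for 10, 1027 for 7, 3008 for 7 and 3003 for 4. Wild-type mouse 1001 thus held the highest value of 8.93% of the members, while it held that of 18.8% of all genes. The median deviation of the members from their gene means was between -0.03 and 0.05 in each of the 6 mice.

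**Figure D5:**
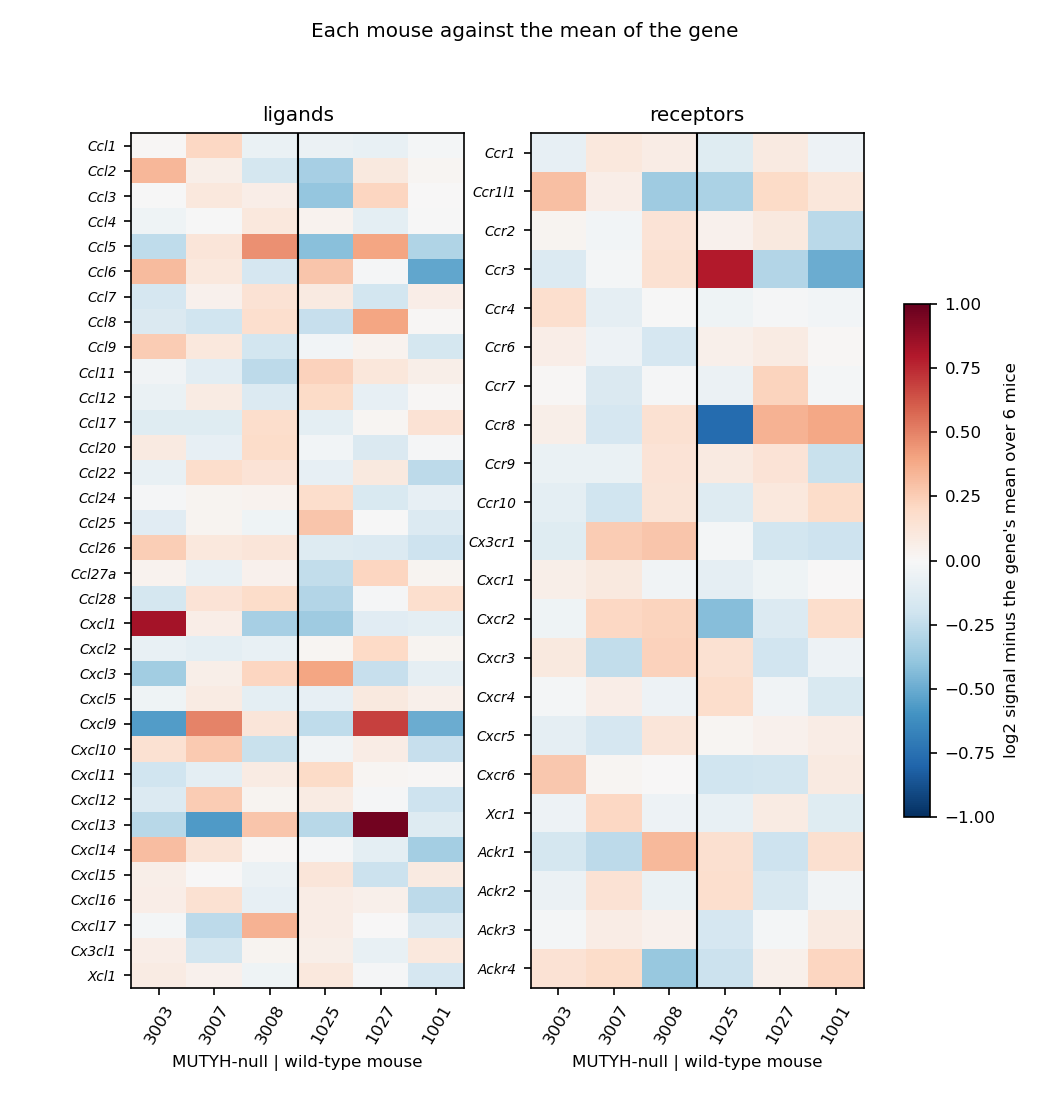
Log2 signal of each ligand (left) and receptor (right) in each mouse, as the deviation from the mean of the gene over 6 mice (color scale from -1 to 1, values past it at the end color). Columns left of the line are MUTYH-null mice; single mice such as 1027 for Cxcl13 and 3003 for Cxcl1 depart further than the groups do.

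Genes around the family were counted from lists of known components. Of 42 measured genes of chemokine signaling, G-protein subunits and kinases among them, 1 was called, or 2.38%, against 5.09% of all genes. It was Vav3, a guanine nucleotide exchange factor, with a difference of 0.37 and a call that held with 3 of the 6 mice left out in turn. The signaling list had a median of 0.04. None of 22 chemokine-inducing cytokines and transcription factors was called (Tnf 0.10, Il1b -0.41 and Ifng 0.10), and none of 18 leukocyte adhesion genes. The Il1b difference was -0.12 without mouse 3008, and it was -0.60 and passed the unadjusted threshold without mouse 3007. The list medians were 0.05 and 0.09.

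Markers of cells that make or follow chemokines were counted in the same fit. Of 8 Kupffer cell markers, those of the resident macrophages of the liver, 3 were called lower in the MUTYH-null mice. That is 37.5%, against 5.09% of all genes called. They were Timd4 (-0.64), Marco (-0.38) and Cd163 (-0.62). Of the 8 markers, 6 had a lower and 2 a higher mean, with differences from -0.64 to 0.34. The higher were Vsig4 (0.34) and Clec1b (0.26). Clec4f (-0.21), Folr2 (-0.17) and Cd5l (-0.05) were lower without being called, and their groups overlapped. The mean level of the Kupffer list was 6.02 to 6.36 in the MUTYH-null and 6.19 to 6.83 in the wild-type mice. With single mice left out, Marco was called in all 6 cases, Timd4 in 5 and Cd163 in 1. Of 10 T-cell markers 1 was higher, Lat (0.32), which is 10.0%, against 5.09% of all genes called. The mean level of the T-cell markers was 4.57 to 4.82 and 4.43 to 4.66. Of 7 dendritic cell markers Itgax was higher (0.38), 14.3% of the list. Of 5 lipid-associated macrophage markers Gpnmb was higher (0.42), 20.0%, and of 8 sinusoidal endothelial markers Lyve1 was higher (0.46), 12.5%. In each of these lists, as in the T-cell list, a single gene made up the share. The calls of Itgax, Gpnmb and Lyve1 held in 2, 2 and 1 of the 6 cases. Of 8 plasma cell markers 25.0% were called, Prdm1 higher (0.36) and Sdc1 lower (-0.31), calls that held in 3 and 2 of the 6 cases. The mean level of these markers was 5.26 to 5.79 in the MUTYH-null and 5.10 to 5.22 in the wild-type mice, but Jchain, which read 7.47 in mouse 3008, carried this separation, and without it the levels overlapped at 5.30 to 5.55 and 5.22 to 5.36. That of 5 cholangiocyte markers was 4.74 to 4.82 and 4.64 to 4.66, and without Krt7 the levels overlapped at 4.60 to 4.78 and 4.61 to 4.62. No marker passed adjustment, the logarithmic scale has no 0, and the part of these cells in the differences of Ccl26, Ccl11, Cxcl14 and Cxcl2 was not tested.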

How the data were processed

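Non-tumorous liver RNA from 6 mice was labelled and hybridised to Affymetrix whole-transcript arrays. The methods name a human array, but the probe annotation lists mouse genes. The deposited values were log2 signals that the authors had made by RMA. Affymetrix Expression Console is among the tools in the submitters' processing notes, as is Transcriptome Analysis Console. Of 41345 probe sets, 23521 named 1 gene, 1820 several and 16004 none, and the highest-mean probe set per gene left 22180 genes. MUTYH-null and wild-type mice were compared with limma 3.58.1 in R 4.3.3 (lmFit and eBayes, two-sided, Benjamini-Hochberg over all genes), and members were called at an unadjusted p of 0.05, the general level of the study's statistics, since the methods give none for the array comparison. The script was tested on simulated data. The number of arrays, 3 a group, limits precision. Members and lists were chosen with earlier results of these data known. Called members, and members with separate groups and a mean above the median signal, are given by mouse, receptors and ligands by means, and up to 4 called genes of other lists by name. Cxcl1, Cxcl9, Cxcl13, Ccl5, Cx3cr1, Cxcr2, Ccr3, Ccr8, Ppbp, Tnf, Il1b, Ifng, Jchain and Krt7 were detailed after their values were seen. All 56 members matched RefSeq by gene identifier, and sequences are those of RefSeq (GRCm38.p6).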

Additional observations from a re-analysis of the deposited data

How the results depend on the processing

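Ccl26 stayed called in each alternative that tested it. The count of called members, 3, was 1 with genes of low mean signal left out (Cxcl14) and 2 with all probe sets tested, and it ran from 1 to 4 with single mice left out, the lowest being without mouse 1027, when Ccl26 alone was called. Array weights, centering, averaged probe sets and renewed quantile normalization kept the same 3 genes, and a robust variance trend exchanged Ccl11 for Cx3cr1. Members with separate groups numbered 4, but 3 with centered arrays (Cxcl14 then overlapped) and 2 without genes of low signal. With single mice left out they numbered 6 to 13, where 18.0% to 21.5% of all genes were separate. The most were found without mouse 3008, 23.2% of members against 21.1% of all genes. Counting Pf4 and Ppbp as members, an alternative chosen after seeing the data, gave 4 called and 5 separate. Leaving Jchain or Krt7 out of its marker list was also chosen after seeing the data. No alternative gave a member passing adjustment. The direction of 33 members turned in at least 1 alternative, and that of 23 did not. Averaged probe sets gave Ccl27a 0.035, and quantile normalization gave Ccr3 0.019 and Cxcr4 -0.0020. With single mice left out, the differences that turned ran over these values: Ackr1 -0.26 to 0.037, Ackr2 -0.061 to 0.11, Ackr3 -0.0065 to 0.12, Ackr4 -0.15 to 0.15, Ccl17 -0.14 to 0.016, Ccl24 -0.029 to 0.14, Ccl25 -0.18 to 0.028, Ccl27a -0.12 to 0.11, Ccl28 -0.031 to 0.21, Ccl3 -0.054 to 0.25, Ccl4 -0.0045 to 0.071, Ccl6 -0.047 to 0.35, Ccl7 -0.071 to 0.10, Ccl8 -0.26 to 0.050, Ccr1l1 -0.15 to 0.19, Ccr2 -0.025 to 0.16, Ccr3 -0.25 to 0.40, Ccr4 -0.017 to 0.11, Ccr8 -0.35 to 0.22, Ccr9 -0.11 to 0.066, Cx3cl1 -0.11 to 0.017, Cxcl12 -0.013 to 0.18, Cxcl13 -0.61 to 0.012, Cxcl15 -0.10 to 0.065, Cxcl16 -0.018 to 0.15, Cxcl17 -0.12 to 0.18, Cxcl3 -0.18 to 0.13, Cxcl5 -0.091 to 0.0023, Cxcl9 -0.19 to 0.40, Cxcr3 -0.046 to 0.19, Cxcr4 -0.070 to 0.093, Mutyh -0.040 to 0.11, Ppbp -0.100 to 0.16, Tnf -0.10 to 0.23, Xcl1 -0.023 to 0.11 and Xcr1 -0.012 to 0.13. No paired analysis was possible because the animal numbers of the groups are not shared. Depth is not defined for arrays, and 24 of the 56 members had a mean under the median signal.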
